A study of Bos taurus with 96 samples.

Results

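ASNS (ENSBTAG00000003222), PSPH (ENSBTAG00000013081) and GLUL (ENSBTAG00000013631) each carry out a step by which a cell makes an amino acid, and their transcripts were followed in liver and skeletal muscle of dairy cows around calving. The 3 genes were chosen by identifier from the 24616 rows of the count files, and all 3 passed the filter on low counts in both tissues. The cows were 16 Holsteins, 8 of good (Fert+) and 8 of poor (Fert-) genetic merit for fertility, of mixed first and second parity and kept as a single herd. They were not bred during the lactation studied. Each cow gave a liver punch biopsy and a biopsy of semitendinosus muscle at late pregnancy (LP, the weeks before calving), early lactation (EL, about the day after calving) and mid-lactation (ML, months later), which makes 96 polyA libraries, 16 per tissue and time-point. Genotype was a matter of selected breeding value and not of an engineered allele, and all groups were otherwise treated alike.

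Asparagine synthetase (ASNS) makes asparagine from aspartate with nitrogen taken from glutamine. Phosphoserine phosphatase (PSPH) catalyses the last step of serine synthesis from glycolysis, after PHGDH and PSAT1. Glutamine synthetase (GLUL) joins ammonia to glutamate. In liver it sits in the hepatocytes around the central vein, where it traps ammonia that the urea cycle has not taken, and skeletal muscle uses it to release amino nitrogen to the blood as glutamine. ASNS and the serine synthesis genes are known targets of ATF4, the transcription factor that cells activate when amino acids run short, whereas GLUL is known to respond to glucocorticoids in muscle.

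Levels are given as CPM, counts per 1000000 counts of the library after TMM scaling in edgeR. They are not divided by gene length, so levels of different genes are not set against each other. Library totals ranged from 14966847 to 26358063 counts in liver and from 15279337 to 22018740 in muscle. Member genes were counted between 51 and 13361 times per library in liver and between 6 and 169973 times in muscle, where PSPH at EL was the most thinly counted. Time-points were compared within cows, with the cow as a block, in edgeR's quasi-likelihood test over all genes that passed the filter, and a gene was called when its Benjamini-Hochberg adjusted p was under 0.05. EL against LP and ML against EL share the EL libraries, so the rise and fall of a gene around EL are not independent results. A set of 13 libraries, 8 of liver and 5 of muscle, counted 11 to 17 of 19 genes that the others left at or near 0 (at most 3 of the 19) and is called counting batch B. Hepatocyte markers were present in liver (the summed level of 8 of 8 was 73969 to 230082 CPM) and 8 matched fibre markers were present in muscle (26588 to 273183 CPM).

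**Figure D1:**
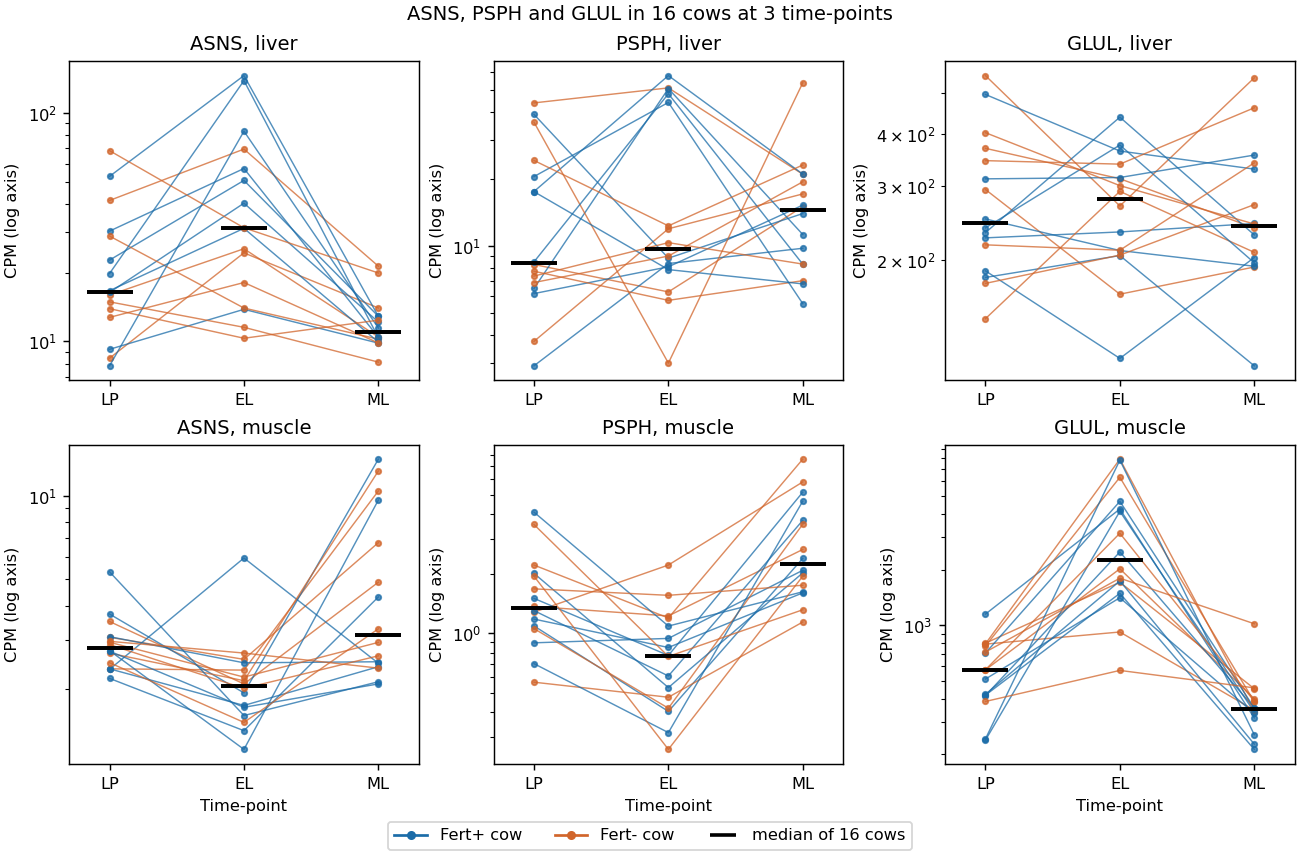
CPM of ASNS, PSPH and GLUL (log axes, a range of its own in each panel) at LP, EL and ML in liver (top) and muscle (bottom), with 1 line per cow, blue for Fert+ and orange for Fert-, and a black bar at the median of 16 cows. GLUL in muscle peaked at EL in 16 of 16 cows, PSPH in muscle rose from EL to ML in 16 of 16, and ASNS in liver fell from EL to ML in 15 of 16.

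GLUL in muscle rose after calving and fell again by mid-lactation, and it did so in every cow. At LP it ranged from 239 to 1148 CPM with a median of 573, at EL from 569 to 7913 with a median of 2253, and at ML from 213 to 1018 with a median of 352. At EL 14 of the 16 cows lay above the highest value of LP, and at ML 15 of 16 lay below the lowest value of EL, so that the groups overlapped by few cows. The mean level was 594 ± 242 CPM (SD, n = 16) at LP, 3273 ± 2364 at EL and 387 ± 182 at ML. The change from LP to EL was 5.02-fold (log2 fold change 2.33, SE 0.28, adjusted p = 3.8e-08) and was the 18th largest increase among 12304 genes tested. From EL to ML GLUL fell 7.59-fold (log2 fold change -2.92, SE 0.29, adjusted p = 4.6e-10). These contrasts moved much of the muscle transcriptome, with 30.4% of genes called higher and 27.9% lower at EL than at LP, and 31.7% called higher and 31.9% lower at ML than at EL.

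The size of the GLUL response varied widely among cows. Cow 756 went from 242 CPM at LP to 7818 at EL, a 32.2-fold rise, whereas cow 164 went from 790 to 918, a 1.16-fold rise. The fold rise exceeded 2 in 14 of 16 cows, and the median was 3.91. At EL the SD of log2(CPM + 1) was 1.10, above that of 99.2% of the genes tested, against 0.63 at LP and 0.51 at ML. At ML GLUL stood below its LP level in 12 of 16 cows, but this difference was not called (log2 fold change -0.60, SE 0.27, adjusted p = 0.161), in a contrast that called 4.17% of genes higher and 4.93% lower.

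In liver no change of GLUL over time was detected. It ranged from 145 to 552 CPM with a median of 245 at LP, from 117 to 439 with a median of 281 at EL, and from 112 to 545 with a median of 241 at ML. The 3 ranges overlapped almost fully. The log2 fold change was -0.05 from LP to EL (95% confidence interval -0.33 to 0.23, adjusted p = 0.877) and -0.03 from EL to ML (-0.31 to 0.25, adjusted p = 0.868), so the first interval ran from 0.797-fold to 1.18-fold. Between ML and LP it was -0.08 (-0.36 to 0.20, adjusted p = 0.745). The direction within cows was mixed, with 7 of 16 cows higher at EL than at LP and 8 of 16 higher at ML than at EL. Single cows still moved, and cow 426 rose 2.01-fold from LP to EL while cow 164 dropped 2.05-fold.

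PSPH in muscle moved the other way from GLUL, with its lowest level at EL. It ranged from 0.567 to 4.10 CPM with a median of 1.34 at LP, from 0.259 to 2.22 with a median of 0.770 at EL, and from 1.14 to 7.60 with a median of 2.24 at ML. At ML 8 of 16 cows lay above the highest EL value. It fell from LP to EL in 14 of 16 cows, by 0.97 on the log2 scale (SE 0.27, adjusted p = 0.00266), and rose from EL to ML in 16 of 16 cows, by 3.56-fold (log2 fold change 1.83, SE 0.26, adjusted p = 2.5e-07). ML exceeded LP 1.82-fold (log2 fold change 0.86, SE 0.25, adjusted p = 0.0255), with 13 of 16 cows higher. This last call did not hold without the batch B libraries (log2 fold change 0.70, adjusted p = 0.105) or with the batch as a term (0.76, adjusted p = 0.0524), and it was lost without any 1 of the 6 cows 164, 419, 782, 1000, 3397 and 3434 (adjusted p between 0.0513 and 0.0647).

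PSPH in liver differed more between cows than between time-points. Its median was 8.39 CPM at LP, with a range of 2.91 to 43.8, then 9.70 at EL, with a range of 2.99 to 58.1, and 14.5 at ML, with a range of 5.53 to 53.9. None of the 3 contrasts was called (log2 fold change 0.42 with SE 0.38 from LP to EL, -0.21 with SE 0.38 from EL to ML and 0.22 with SE 0.36 between ML and LP, with adjusted p = 0.533, 0.684 and 0.736). The confidence interval from LP to EL ran from -0.34 to 1.18, so a rise of up to 2.27-fold lay within it.

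At EL the liver values of PSPH fell into separate sets. There were 5 cows between 44.1 and 58.1 CPM and 11 between 2.99 and 12.3, with none in between, and 4 of the upper 5 were Fert+. At LP 7 cows lay between 17.6 and 43.8 CPM and 9 between 2.91 and 8.50. Cows did not keep their place. Cow 419 stood at 35.9 CPM at LP, 2.99 at EL and 53.9 at ML, an 18.02-fold rise over the last interval. Cow 33 rose from 6.46 to 50.8 CPM between LP and EL, which was the largest rise of that interval at 7.86-fold, and returned to 11.3 at ML. The SD of log2(CPM + 1) of PSPH in liver was above that of 99.3%, 98.7% and 98.1% of genes at LP, EL and ML.

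ASNS in liver fell steeply from EL to ML. It ranged from 7.82 to 68.4 CPM with a median of 16.5 at LP, from 10.3 to 146 with a median of 31.3 at EL, and from 8.12 to 21.3 with a median of 11.0 at ML. Cows were widely spread at LP and EL and close together at ML, where the SD of log2(CPM + 1) was 0.34 against 0.87 at LP and 1.18 at EL. The level fell from EL to ML in 15 of 16 cows, by 1.61 on the log2 scale (SE 0.26, adjusted p = 3.5e-05), or 3.06-fold. In this contrast 20.6% of genes were called lower and 21.5% higher. Cell type markers moved in the same interval. Of 8 hepatocyte markers 3 were called higher and 1 lower (summed median 124593 CPM at EL and 147148 at ML), 3 of 3 fibroblast markers were higher (92.3 and 147 CPM) and 2 of 3 neutrophil markers were lower (6.52 and 5.82 CPM). From LP to EL, where 1.42% of all genes were called lower, 4 of the 8 hepatocyte markers were (159219 CPM at LP). Their part in the liver changes was not tested. The steepest fall of ASNS, 13.3-fold, was in cow 756, from 139 to 10.4 CPM. Against LP, ML was 1.67-fold lower (log2 fold change -0.74, SE 0.26, adjusted p = 0.0456), in a contrast that called 6.42% lower and 9.07% higher. That call lay near the threshold and was lost without the batch B libraries (adjusted p = 0.0761), with batch as a term (0.0610), with no gene filter (0.0702) and without any 1 of 11 cows (0.0600 to 0.0826), the exceptions being cows 756, 782, 996, 1000 and 3434.

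The rise of liver ASNS from LP to EL just missed the threshold. The log2 fold change was 0.87 (SE 0.26, 95% confidence interval 0.34 to 1.40, adjusted p = 0.0580), a 1.83-fold difference, and 12 of 16 cows rose. Only 1.08% of genes were called higher and 1.42% lower between LP and EL in liver. The number of calls in that contrast rested on single cows, and leaving out 1 cow at a time gave between 8 (without cow 782) and 1468 (without cow 426) called genes where all cows gave 336. It lay between 10 and 96 without cow 164, 756, 1179, 3397 or 3445, and it was 135 without cow 33 and 181 without cow 419. Without the batch B libraries 0 genes were called by edgeR, so that each call from LP to EL in liver was lost there. Leaving them out also takes the LP or EL library, or both, from cows 33, 419, 756 and 3847. With all libraries kept and the batch as a term, 272 genes were called and ASNS was not (adjusted p = 0.0569). The rise of ASNS was called by DESeq2 (adjusted p = 0.0135) and without cow 419, 426, 982 or 996 (adjusted p between 0.0206 and 0.0488), and was not called without the batch B libraries (log2 fold change 0.77, adjusted p = 0.305). The largest rise was in cow 782, from 7.82 to 83.2 CPM (10.6-fold), and the largest drop in cow 982, from 68.4 to 31.4 CPM.

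In muscle ASNS was at its highest at ML. It ranged from 2.18 to 5.30 CPM with a median of 2.82 at LP, from 1.21 to 5.95 with a median of 2.05 at EL, and from 2.09 to 13.5 with a median of 3.12 at ML. From EL to ML it rose in 14 of 16 cows, by 2.15-fold (log2 fold change 1.10, SE 0.25, adjusted p = 2.5e-04). The decline from LP to EL was seen in 15 of 16 cows but was not called (log2 fold change -0.44, SE 0.25, adjusted p = 0.126). Cow 3847 was the exception, with 2.35 CPM at LP and 5.95 at EL, and without it the decline was called (log2 fold change -0.60, adjusted p = 0.0258). The difference between ML and LP was not called (0.66, SE 0.24, adjusted p = 0.0829), although it was by DESeq2 (0.64, adjusted p = 0.0489) and without cow 430 (0.79, adjusted p = 0.0280). At ML 5 cows, 164, 419, 782, 1000 and 3397, lay between 6.76 and 13.5 CPM, above the highest EL value, and the others reached at most 4.86.

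**Figure D2:**
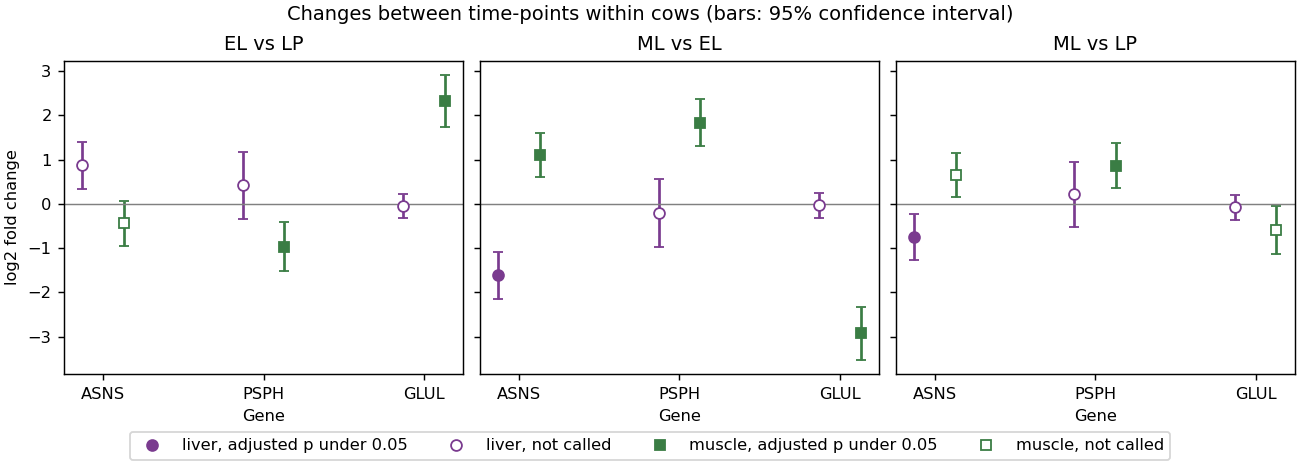
Log2 fold changes of ASNS, PSPH and GLUL between time-points from the fit with each cow as a block, in liver (purple circles) and muscle (green squares), with bars for the 95% confidence interval and filled symbols for an adjusted p under 0.05. From LP to EL muscle GLUL rose by 2.33 while liver GLUL was at -0.05, and from EL to ML ASNS fell by 1.61 in liver and rose by 1.10 in muscle.

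The tissues differed in their changes over time, which was tested directly as the liver change less the muscle change in a single fit over 14236 genes with a block for each cow within each tissue. From LP to EL this difference was 1.36 for ASNS (SE 0.37, adjusted p = 0.00387), 1.44 for PSPH (SE 0.51, adjusted p = 0.0266) and -2.32 for GLUL (SE 0.30, adjusted p = 2.5e-08) on the log2 scale. From EL to ML it was -2.79 for ASNS (SE 0.38, adjusted p = 1.3e-08), -2.10 for PSPH (SE 0.50, adjusted p = 4.9e-04) and 2.82 for GLUL (SE 0.31, adjusted p = 3.8e-11). ASNS and PSPH thus had positive differences at the first step and negative ones at the second, and GLUL the reverse. Called changes of opposite sign in liver and muscle were found for ASNS from EL to ML alone, whereas for PSPH and GLUL the called changes were in muscle and none was called in liver. Such differences were common, with 28.7% of genes called from LP to EL and 39.2% from EL to ML. Between ML and LP, where 9.73% were called, ASNS was called (-1.43, SE 0.37, adjusted p = 0.00674) and PSPH (-0.66, SE 0.48, adjusted p = 0.415) and GLUL (0.50, SE 0.30, adjusted p = 0.296) were not.

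ASNS and PSPH were higher in liver and GLUL higher in muscle at each time-point, although nearly all genes differ between these tissues (88.8%, 85.5% and 89.2% called at LP, EL and ML). The gap was widest at EL for all 3. ASNS was 6.20-fold higher in liver at LP, 15.3-fold at EL and 2.42-fold at ML. For PSPH the liver excess was 7.36-fold, 17.0-fold and 4.47-fold. GLUL was 2.202-fold, 10.6-fold and 1.59-fold higher in muscle. Each of these 9 differences was called (adjusted p of at most 8.6e-04). TMM scaling across tissues assumes that most genes are alike, which the shares above go against, so the size of these folds is uncertain. The medians ordered below come from CPM scaled within each tissue, so liver and muscle are not on a common scale there. Liver and muscle were tested against each other only at the same time-point. Muscle ML against liver EL for GLUL, and liver LP against muscle ML for PSPH, were therefore not tested. By median, the order for GLUL was muscle at EL, LP and ML and then liver at EL, LP and ML. Here the muscle values of LP and ML, and the liver values among themselves, were not called apart. For ASNS it was liver at EL, LP and ML and then muscle at ML, LP and EL. Neighbours that were not called apart were liver EL and LP, muscle ML and LP, and muscle LP and EL. For PSPH the order was liver at ML, EL and LP, with no liver pair called, and then muscle at ML, LP and EL, with each muscle pair called. In bulk biopsies a lower level can mean fewer cells of a type or less RNA per cell, and these cannot be told apart.

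Other genes of amino acid metabolism were read from lists written from general knowledge, of which 75 of 159 symbols could be matched to an identifier. The lists were written with earlier results of these data known, and symbols were mostly those the study had picked from these samples, so the counts are not independent evidence. Of the serine and glycine list 5 of 9 were measured. In muscle 4 of these 5 were higher at ML than at EL (31.7% of all genes) and 2 were lower at EL than at LP (27.9% of all genes, so the latter share was near that background), with a median log2 fold change of 1.53 and -0.51 against 0.01 over all genes in both contrasts. PHGDH, the first enzyme of serine synthesis, went from 0.722 ± 0.544 CPM (SD, n = 16) at LP to 0.399 ± 0.381 at EL and 1.38 ± 1.25 at ML (log2 fold change -0.88, adjusted p = 0.0141, and 1.84, adjusted p = 1.6e-06). PSAT1, the middle enzyme, rose from EL to ML by 1.53 (adjusted p = 6.9e-07), in 14 of 16 cows, and stood at -0.51 from LP to EL (adjusted p = 0.0783). All 3 enzymes of this pathway were thus called higher in muscle at ML than at EL.

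In liver the 3 serine synthesis genes did not move together. PHGDH was not called from LP to EL (log2 fold change -0.11, adjusted p = 0.719) or from EL to ML (-0.04, adjusted p = 0.844). PSAT1 rose by 0.64 from EL to ML (adjusted p = 0.00675), from 216 ± 102 CPM to 329 ± 70.3, while PSPH was not called. For the serine list as a whole 1 of 5 was called higher and 1 lower from EL to ML. These shares were near those of all genes (21.5% higher and 20.6% lower). From LP to EL none of the list was called by edgeR (2 at an unadjusted p below 0.05).

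Around ASNS and GLUL, 3 of 5 genes of the asparagine and aspartate list and 2 of 7 of the glutamine and glutamate list were measured. In muscle 3 of 3 of the former were higher at ML than at EL, and 2 of 3 were lower at EL than at LP, beside 31.7% and 27.9% of all genes. GOT2, the mitochondrial enzyme that exchanges amino groups between glutamate and aspartate, fell from 863 ± 107 CPM at LP to 620 ± 163 at EL (log2 fold change -0.51, SE 0.07, adjusted p = 1.3e-07) and rose by 0.41 to ML (adjusted p = 3.2e-06). GLUD1, which releases ammonia from glutamate, fell in muscle by 0.21 from LP to EL (adjusted p = 6.1e-04) and rose by 0.22 to ML (adjusted p = 2.9e-04), opposite in sign to GLUL and much smaller on the log2 scale. In liver GLUD1 rose from 1045 ± 372 CPM at EL to 1514 ± 444 at ML (0.52, adjusted p = 0.0107). PYCR1, the only proline synthesis gene measured of 5, fell in liver from EL to ML by 1.74 (adjusted p = 1.8e-05) and rose in muscle by 0.63 (adjusted p = 0.0153).

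Measured tRNA synthetases and transporters were lower in liver at ML than at EL, as ASNS was. Of the cytoplasmic tRNA synthetases, 5 of 20 were measured and 5 of 5 fell in liver, where 20.6% of all genes did (median log2 fold change -0.89 against 0.00 over all genes). GARS1, which charges tRNA with glycine, went from 19.6 ± 3.58 CPM at LP to 35.3 ± 28.6 at EL and 16.04 ± 2.39 at ML, and was called at both steps (0.64, adjusted p = 0.0444, and -0.91, adjusted p = 2.3e-04). HARS1 for histidine fell by 0.30 (adjusted p = 0.00434). Both measured transporters fell as well. SLC38A2, which brings in small neutral amino acids, rose by 1.07 from LP to EL (adjusted p = 0.0312) and dropped by 1.41 to ML (adjusted p = 1.6e-04), and SLC3A2, the common chain of several exchangers, dropped by 0.59 (adjusted p = 0.0140). Of 7 measured genes of the amino acid response, 2 fell from EL to ML in liver, ATF4 by 0.68 (SE 0.14, adjusted p = 3.8e-04) and ATF5 by 0.56 (adjusted p = 0.0374), and none was called higher. That share was near the 20.6% of all genes. From LP to EL none of the 7 was called in liver by edgeR (1 at an unadjusted p below 0.05).

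In muscle the genes of these lists moved in both directions. ATF4 was at -0.09 from LP to EL (adjusted p = 0.381) and fell by 0.24 from EL to ML (adjusted p = 0.0113), the interval in which ASNS and PSPH rose. ATF5 fell by 0.67 from LP to EL (adjusted p = 1.8e-05) and rose by 0.39 to ML (adjusted p = 0.00728). DDIT4, a brake on growth signalling through mTOR, rose 2.06-fold from LP to EL (log2 fold change 1.05, adjusted p = 7.4e-05) and fell by 0.66 to ML (adjusted p = 0.00588). Of the list, 3 of 7 rose and 1 fell from LP to EL, and 1 rose and 4 fell from EL to ML, in contrasts that called 30.4% of all genes higher and 27.9% lower at the first step and 31.7% higher and 31.9% lower at the second. Of the 5 tRNA synthetases 3 rose from LP to EL, with HARS1 at 0.72 (adjusted p = 1.8e-05), and 2 fell and 1, GARS1, rose from EL to ML. SLC3A2 rose by 0.69 and then fell by 1.17 (adjusted p = 5.6e-04 and 3.3e-07), and SLC38A2 fell by 0.35 and rose by 0.29 (adjusted p = 0.0205 and 0.0488).

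**Figure D3:**
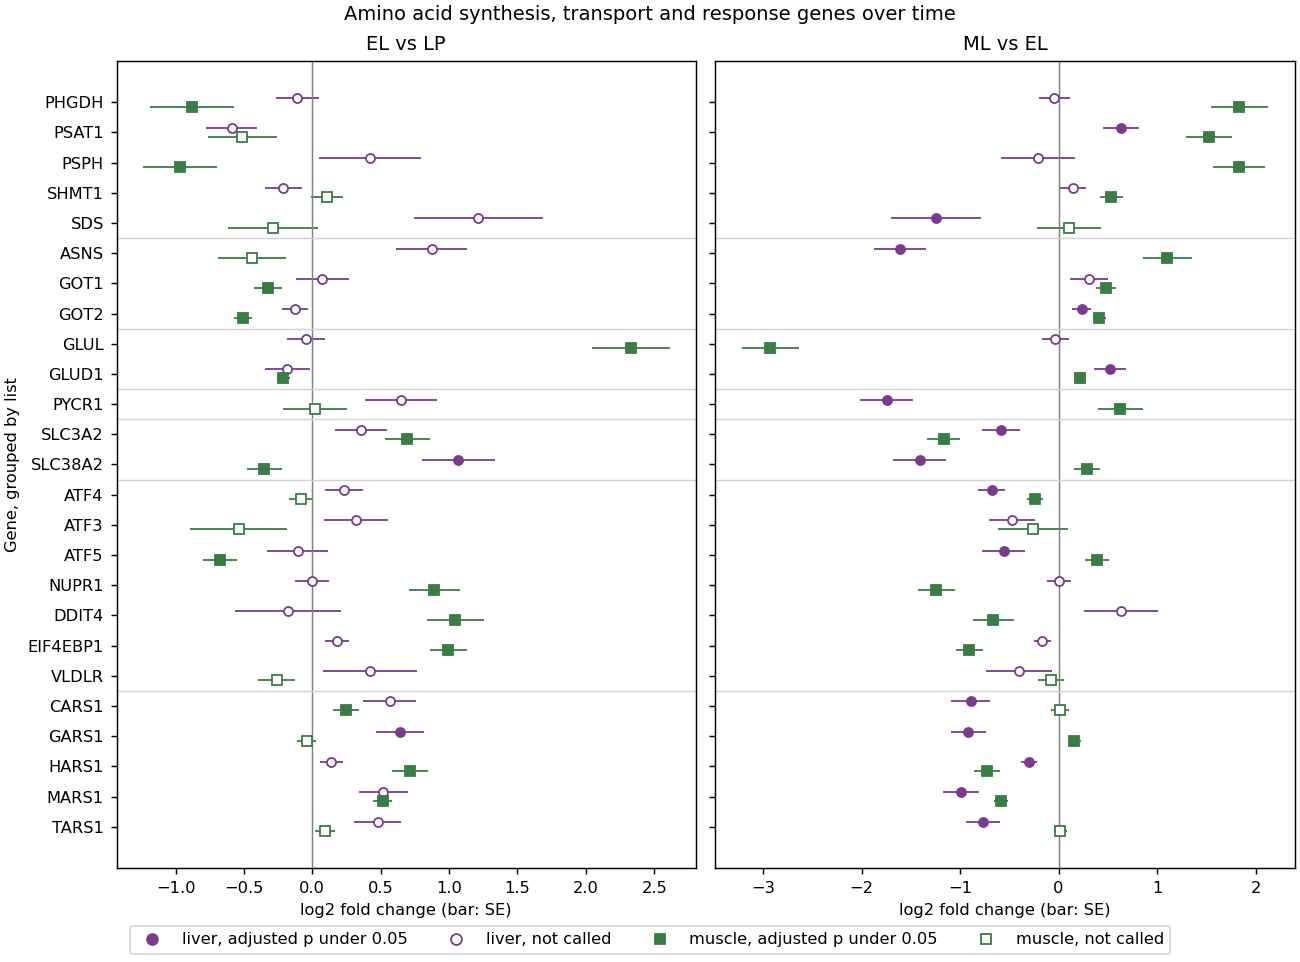
Log2 fold changes with SE from LP to EL (left) and from EL to ML (right) of the measured genes of 7 lists, separated by grey lines (serine and glycine, asparagine and aspartate, glutamine and glutamate, proline, transporters, amino acid response, tRNA synthetases), in liver (purple circles) and muscle (green squares), filled where the adjusted p was under 0.05. From EL to ML PHGDH, PSAT1, PSPH and ASNS were higher in muscle, and ASNS, PYCR1 and the 5 tRNA synthetases were lower in liver.

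GLUL in muscle moved with several genes of the glucocorticoid and atrophy list. In that list 8 of 17 genes were measured, of which 5 rose and none fell from LP to EL, where 30.4% of all genes rose, and 5 fell and none rose from EL to ML, where 31.9% fell (median log2 fold changes 1.01 and -1.27 against 0.01 over all genes). TRIM63, a ubiquitin ligase of wasting muscle, had a median of 142 CPM at LP, 965 at EL and 75.2 at ML (log2 fold change 2.79, SE 0.27, adjusted p = 8.9e-10, and -3.67, SE 0.28, adjusted p = 2.2e-12). FBXO32, another ligase of this kind, rose by 1.29 and fell by 2.65 (adjusted p = 1.7e-05 and 6.1e-11), and FKBP5, which glucocorticoids induce, rose by 1.72 and fell by 1.90 (adjusted p = 1.3e-06 and 1.6e-07). In liver 0 of 7 measured genes of this list were called from LP to EL by edgeR (3 at an unadjusted p below 0.05), and FKBP5 fell by 1.48 from EL to ML (adjusted p = 1.8e-04).

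Over the 48 muscle libraries the genes most like GLUL among 1611 with a symbol were NAMPT, a gene of NAD synthesis (Pearson r of log2(CPM + 1) 0.97), TRIM63 (0.95) and ALPK3 (0.94). After the mean of each time-point was removed, r was 0.91, 0.82 and 0.81. These are descriptions over libraries that share cows and library preparation. NAMPT rose 3.48-fold from LP to EL and fell 5.57-fold to ML (adjusted p = 2.0e-08 and 3.3e-11). Cow 982, with the lowest GLUL at EL, 569 CPM, also had the lowest TRIM63 (164 CPM) and NAMPT (149 CPM) of EL. Cow 996, whose GLUL at ML was the highest at 1018 CPM, had the highest TRIM63 (168 CPM), NAMPT (193 CPM), FBXO32 (198 CPM) and FKBP5 (374 CPM) of that time-point. Cow 3847 went against this, with 4251 CPM of GLUL at EL and the lowest FBXO32 of EL (66.4 CPM, from 162 at LP).

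**Figure D4:**
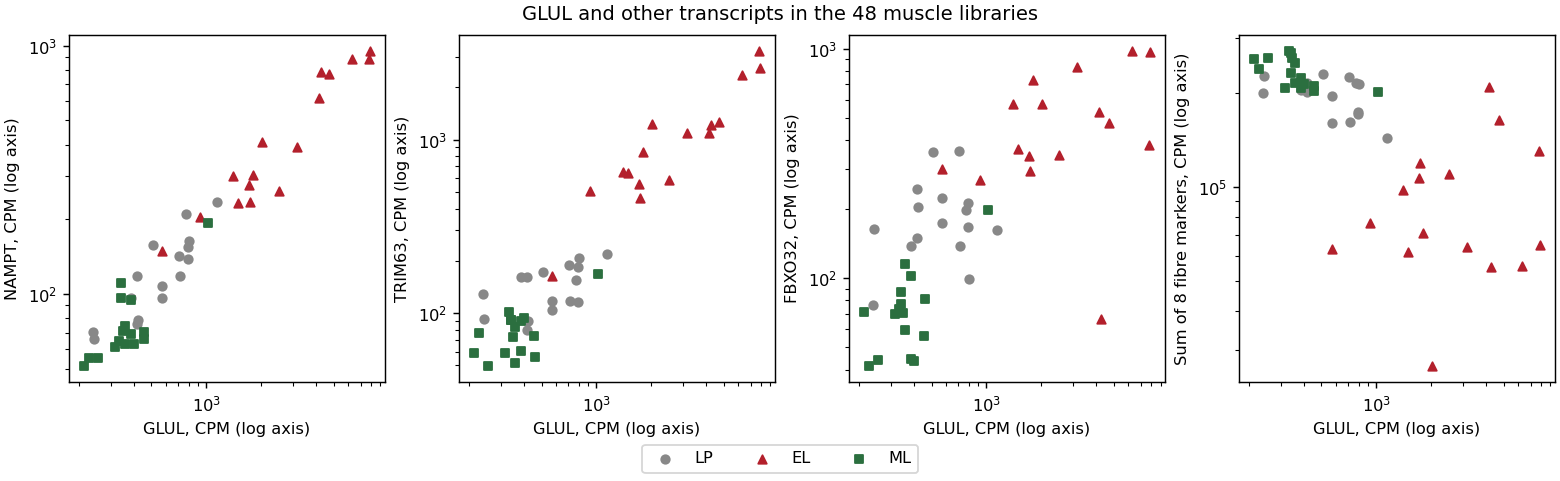
Each of the 48 muscle libraries by its GLUL level (x axes, CPM, log) against NAMPT, TRIM63, FBXO32 and the summed level of 8 muscle fibre markers (y axes, CPM, log), with grey circles for LP, red triangles for EL and green squares for ML. NAMPT and TRIM63 rose along with GLUL over its whole range of 213 to 7913 CPM, and the fibre markers were lower in most EL libraries.

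Muscle fibre transcripts shifted at the same time. Of 9 fibre markers 8 were matched, and none was at 0 in muscle. All 8 were called lower at EL than at LP, beside 27.9% of all genes, and higher at ML than at EL, beside 31.7%. Their summed level was 143885 to 230913 CPM (median 203169) at LP, 26588 to 209387 (median 73925) at EL and 201505 to 273183 (median 227519) at ML. The relation of the fibre sum to GLUL across cows was not tested, and single cows at EL are given as a description. Cow 430 had 4128 CPM of GLUL with 209387 CPM of fibre markers, cow 419 had 7913 with 65354, and cow 982 had 569 with 63419. Of other markers in muscle, 3 of 3 matched fibroblast genes were lower at EL (summed median 259 CPM at LP, 148 at EL and 212 at ML), and 1 endothelial marker was called higher at EL (summed median 65.2, 91.0 and 76.8 CPM). Of 3 matched neutrophil markers 1 passed the filter and was higher at EL than at LP and lower at ML than at EL (summed median 0.622, 1.21 and 0.459 CPM), and of 3 adipocyte markers 1 was lower at EL than at LP and 1 higher at ML than at EL (6.22, 6.04 and 15.3 CPM). Across all genes 30.4% were called higher at EL than at LP and 31.9% lower at ML than at EL. The adipocyte shares were near those of all genes, and a call of 1 marker carries little weight beside them. The part of these marker shifts in the changes of GLUL, ASNS and PSPH was not tested. Hepatocyte markers were low in muscle (summed median 2.06, 1.69 and 11.2 CPM, and at most 175 CPM at ML), and the 2 of 8 that passed the filter were higher at ML than at EL.

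In liver the genes most like ASNS over 48 libraries, among 1810 with a symbol, were MARS (MARS1), CARS (CARS1) and SLC16A1, with r of 0.90, 0.89 and 0.90, and 0.86, 0.86 and 0.85 after the time-point means were removed. MARS1 and CARS1 charge tRNA with methionine and cysteine, and SLC16A1 carries lactate and other monocarboxylates. At EL cow 3847 had the highest ASNS (146 CPM), ATF4 (736 CPM against a median of 243), CARS1 (118 against 21.1), GARS1 (126 against 24.6), MARS1 (131 against 31.0), TARS1 (1035 against 173) and SLC3A2 (276 against 39.7) of 16 cows. Its PSPH was 8.84 CPM, below the median of 9.70. Its PHGDH (69.6 CPM against a median of 129) and PSAT1 (59.1 against 195) were the lowest of the 16 cows. This library belonged to counting batch B. Cow 756, with 139 CPM of ASNS, had 44.1 CPM of PSPH, and cow 3397 had the highest PSPH (58.1 CPM) with 57.1 CPM of ASNS. Neutrophil markers (3 of 5 matched) had a summed level of 2.32 to 283 CPM at EL in liver, highest in cow 164 and 102 CPM in cow 3847, and their part was not tested. Without cow 3847 ASNS in liver was at 0.81 from LP to EL and -1.50 from EL to ML on the log2 scale, the latter still called (adjusted p = 1.4e-04).

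PSPH had less close neighbours in liver. LOXL4, PYCR1 and CFL2 led with r of 0.62, 0.61 and 0.60, or 0.74, 0.73 and 0.68 within time-points. GLUL in liver led with TNFRSF11B at 0.47, PLA2G2D3 at 0.46 and AKR1C1 at 0.45. In muscle the gene most like ASNS was PSPH and the gene most like PSPH was ASNS (r = 0.76, and 0.65 within time-points). After them came PSAT1 (0.73) and GARS (GARS1, 0.62) for ASNS, and BANF1 and GPC3 (both 0.75) for PSPH.

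GLUL in liver was also set beside the genes of its zone. Of 9 perivenous hepatocyte genes 4 were measured. From LP to EL 3 were called lower, beside 1.42% of all genes. From EL to ML 3 were called higher, beside 21.5%. As with every call from LP to EL in liver, those given here were lost without the batch B libraries. CYP2E1, a cytochrome of these cells, fell 2.002-fold (SE of the log2 fold change 0.26, adjusted p = 0.0361) and rose by 1.24 on the log2 scale (adjusted p = 4.5e-04), and RGN fell by 0.64 and rose by 0.82 (adjusted p = 0.0286 and 1.9e-04), while GLUL was not called. In the urea cycle list, which in liver handles the ammonia that reaches the periportal cells, 4 of 5 were measured. OTC, which makes citrulline, fell by 0.77 from LP to EL (adjusted p = 0.0245) and rose by 1.01 to ML (adjusted p = 1.0e-04). ASS1 was not called in liver from LP to EL (log2 fold change -0.00, SE 0.13) or to ML (0.30, adjusted p = 0.0614), but rose in muscle by 1.15 from LP to EL (adjusted p = 2.1e-07) and fell by 0.95 to ML (adjusted p = 3.3e-06). Of 6 measured periportal genes none was called in liver from LP to EL by edgeR (3 at an unadjusted p below 0.05).

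Cows with more of a member transcript were compared for the other members at the same tissue and time-point (18 relations) and for the same gene in the other tissue (9 relations), with 27 relations adjusted together. ASNS and PSPH in muscle at ML rose together across cows. Pearson r was 0.81 (permutation p = 3.6e-04, adjusted 0.00486) and Spearman rho 0.69 (permutation p = 0.00415, adjusted 0.0560) over 16 cows. Without the 2 cows farthest from the ASNS median r was 0.84. Within Fert+ and Fert- cows it was 0.85 and 0.84, and within counting batch A, with 14 cows, 0.84. The 5 cows of highest ASNS (6.76 to 13.5 CPM) had 3.57 to 7.60 CPM of PSPH and the others 1.14 to 3.73. Each of these coefficients spans both sets of cows, and none was computed inside a set. In liver the PSPH values fell into separate sets at LP and EL, so no pooled coefficient is given. Tested over all 16 cows, ASNS and PSPH in liver at LP passed the adjustment by r and by rho (permutation test, adjusted p = 0.00378 and 0.0421). That result spans both sets of cows, as the one in muscle at ML does. At LP the 7 cows of higher PSPH had 16.7 to 68.4 CPM of ASNS and the 9 of lower PSPH 7.82 to 22.7, so that these sets overlapped little in ASNS. Inside a set the range of PSPH is narrowed, so the coefficients there do not measure the relation across both sets. They do not show that liver at LP lacks the relation given for muscle at ML. Within the 9 cows of lower PSPH at LP r with ASNS was 0.39 (exact permutation p = 0.293) and rho -0.03 (0.948), and within the 7 cows of higher PSPH r was 0.53 (exact permutation p = 0.217) and rho 0.61 (0.167). No relation of GLUL with ASNS or PSPH passed the adjustment. The relation that came nearest, PSPH with GLUL in muscle at EL, had r of -0.63 (permutation p = 0.00806, adjusted 0.0720) and rho of -0.55 (permutation p = 0.0297, adjusted 0.147), and r was -0.37 without the 2 cows farthest from the PSPH median, -0.0029 in Fert+ and -0.83 in Fert- cows and -0.52 in batch A.

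No relation was detected between the level of a gene in liver and its level in muscle of the same cow. For ASNS, PSPH and GLUL at the 3 time-points r ranged from -0.13 to 0.39, with the highest for PSPH at ML (r = 0.39, rho = 0.39, permutation p = 0.140 and 0.136, adjusted 0.344 and 0.367), and none of the 9 passed.

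**Figure D5:**
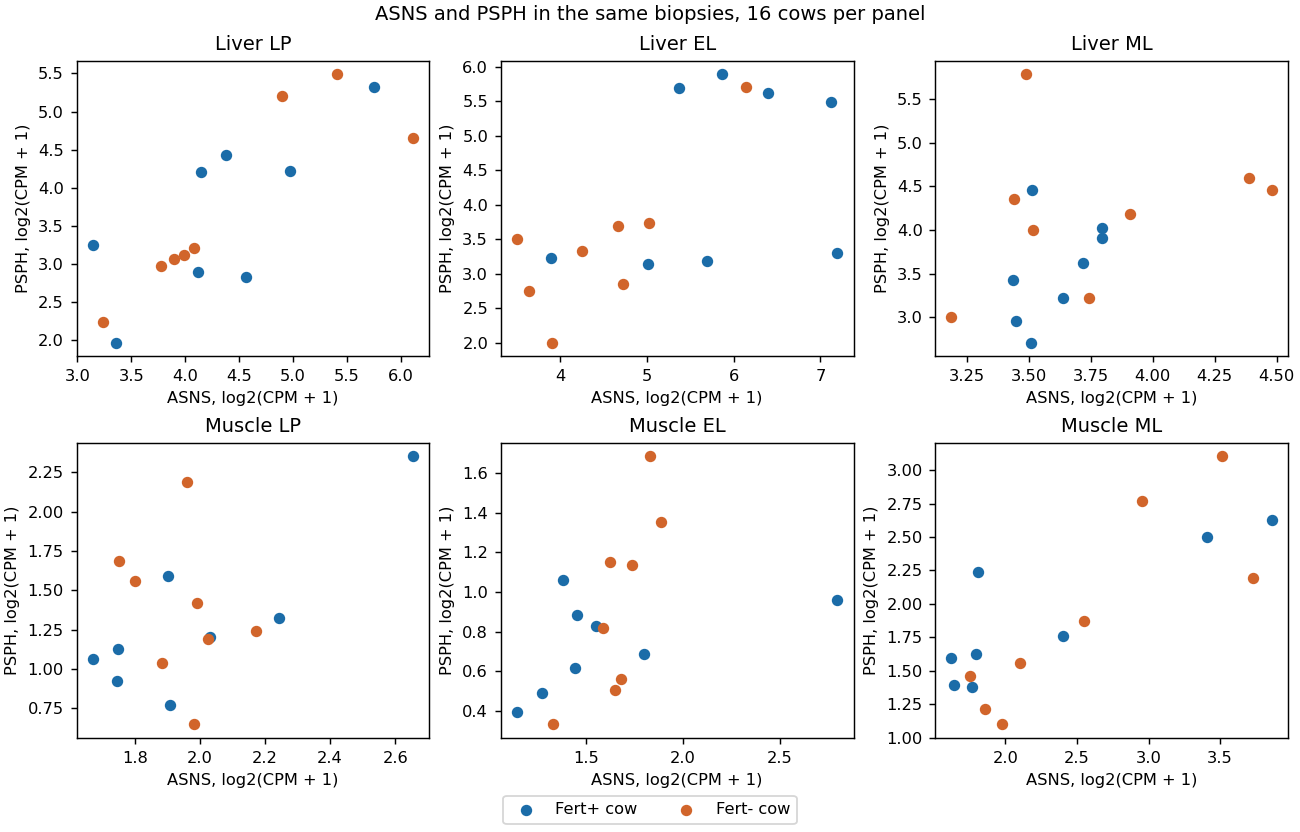
ASNS (x axes) against PSPH (y axes), both as log2(CPM + 1), in liver (top) and muscle (bottom) at LP, EL and ML, with 1 point per cow, blue for Fert+ and orange for Fert-. At ML the cows with more ASNS in muscle also had more PSPH (r = 0.81), and at EL in liver PSPH lay in sets of 5 and 11 cows.

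The study had named ASNS, PSPH and GLUL for differences between genotypes in these same samples, so the genotype values are a description and not independent evidence. By edgeR's quasi-likelihood test no member was called at any tissue and time-point. The study states that it used edgeR with the common dispersion method. With 1 common dispersion for all genes, edgeR's exact test called ASNS and PSPH in liver at EL, PSPH in liver at ML and GLUL in muscle at ML. The study reported these differences in the same directions. They were among 301, 279 and 214 genes called in those comparisons. DESeq2 called 6 and 77 genes in liver at EL and ML, none of them a member. By the quasi-likelihood test 0% of liver genes were called at LP, EL and ML (at an unadjusted p below 0.05 there were 842, 1530 and 1640), and in muscle 0%, 0.00831% and 0% (800, 1426 and 917). ASNS in liver at EL ranged from 13.8 to 146 CPM with a median of 53.9 in Fert+ cows, and from 10.3 to 69.5 with a median of 21.3 in Fert- cows. The 3 highest cows were Fert+ and the rest overlapped. The log2 difference, Fert+ less Fert-, was 1.45 (SE 0.47, adjusted p = 0.379 by edgeR), and 7 of 8 Fert+ cows lay above the Fert- median. At LP and ML it was -0.21 and -0.24 (adjusted p = 0.965 and 0.602).

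ASNS in liver rose from LP to EL in 8 of 8 Fert+ cows, with a median fold of 2.35, and in 4 of 8 Fert- cows, with a median fold of 1.10. The difference between these changes was 1.57 on the log2 scale (SE 0.42), the 8th largest of 13406 genes by size in that direction, but did not pass the adjustment (adjusted p = 0.220). From EL to ML it was -1.54 (adjusted p = 0.627), the 7th largest in its direction. For PSPH in liver the difference was 1.13 from LP to EL (SE 0.70, adjusted p = 0.525). From EL to ML that of PSPH was -1.79 (SE 0.69, adjusted p = 0.627), the 4th largest in its direction. In liver 0% of genes were called by edgeR in each of the 3 tests of genotype by time-point, with 1615, 1053 and 368 below an unadjusted 0.05 from LP to EL, from EL to ML and between ML and LP. In muscle 0.0163% were called from LP to EL and 0% in the other 2 (1104 and 477 unadjusted), none of them a member.

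PSPH in liver was higher in Fert+ at EL by 1.10 (SE 0.59, adjusted p = 0.458) and lower at ML by 0.84 (SE 0.37, adjusted p = 0.371), and neither was called. Its medians at EL were 26.4 CPM in Fert+, with a range of 7.85 to 58.1, and 9.70 in Fert-, with a range of 2.99 to 51.2, and the groups overlapped over nearly the whole range. At ML they were 10.5 (5.53 to 21.0) and 18.3 (7.004 to 53.9). GLUL in muscle at ML ranged from 213 to 356 CPM in Fert+ cows with a median of 324, and from 342 to 1018 in Fert- cows with a median of 394. All 8 Fert+ cows lay below the Fert- median and 6 of 8 Fert- cows lay above every Fert+ cow. The log2 difference was -0.66 (SE 0.21) and did not pass over 12001 genes (adjusted p = 0.490 by edgeR). The exact permutation test over cows, two-sided, gave p = 0.00155 for this difference and 0.0204 for ASNS in liver at EL, where 8 against 8 cows cannot go below 0.000155, with no adjustment for the 18 values so tested. At EL GLUL in muscle had medians of 3308 CPM in Fert+ and 1906 in Fert- (log2 difference 0.19, SE 0.49, adjusted p = 0.917).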

How the data were processed

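Per the labels and the study's methods, the authors trimmed reads, aligned them with STAR to UMD3.1, kept proper pairs and deposited raw counts per Ensembl gene from featureCounts, 1 file per library, with no normalization. Tables of the whole series with 96 unnamed count columns were not used. Symbols came from the study's supplementary gene lists (names only), so 2161 of 24616 identifiers had one, and many list genes are not analysed here. No sequence or position is given.

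CPM used TMM factors. Tests were run in edgeR 4.0.16 (quasi-likelihood, robust, filterByExpr, two-sided, Benjamini-Hochberg) under R 4.3.3 with limma 3.58.1. Time-points were compared with cow as a block, tissues with cow as a block, and genotypes per time-point. Exact permutation tests and correlations (log2(CPM + 1), 100000 resamples) used Python 3.11.15 and scipy 1.17.1. Alternatives are given at the end, among them DESeq2 1.42.0 and an edgeR exact test with one common dispersion. Libraries pair by cow number in the labels, and residuals of the same cow correlated (median r 0.26 in liver and 0.25 in muscle, over 48 pairs each, against -0.02 for other cows). Library totals set the precision, and low counts of PSPH in muscle limit it most. Members, gene lists and tests were chosen with earlier results of these data known. Named genes are the members, the list genes with the highest and lowest called EL against LP change per tissue, a few set regulators and enzymes (ATF4, PHGDH, PSAT1, GLUD1, FKBP5, FBXO32), and the 3 genes most correlated with each member. CARS1, MARS1, TARS1, PYCR1 and the single cows described were added after their values were seen.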

Additional observations from a re-analysis of the deposited data

Results flagged for a closer look

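Within groups of 8 cows of 1 genotype, a cow was set apart when its gap to the next cow took more than Dixon's critical share of the group's range on the log2 scale, which chance gives in about 1 in 20 groups, and 4 of 36 groups held such a cow. PSPH in liver at EL was 51.2 CPM in Fert- cow 164, with the next Fert- cow at 12.3. ASNS in muscle at EL was 5.95 CPM in Fert+ cow 3847, with the next at 2.49. GLUL in muscle at LP was 386 CPM in Fert- cow 982, below the next at 573. GLUL in muscle at ML was 1018 CPM in Fert- cow 996, with the next at 458.

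The tissues differed in their course over time. The liver change less the muscle change from LP to EL was 1.36 for ASNS, 1.44 for PSPH and -2.32 for GLUL on the log2 scale. From EL to ML it was -2.79 for ASNS, -2.10 for PSPH and 2.82 for GLUL, and between ML and LP it was -1.43 for ASNS. Each of these was past the threshold in the edgeR test of the difference itself.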

How the results depend on the processing

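Over the alternatives that kept all cows, 287 of 304 values of the members kept their direction and their side of the threshold, and 259 of 288 did so when 1 cow was left out. The 7 called differences between the tissues' courses, the 9 between the tissues, and the EL to ML changes of ASNS in both tissues and of PSPH and GLUL in muscle held under each alternative run on them. Without the replicate block, log2 values of PSPH in liver between ML and LP (-0.00039), of ASNS in liver (-0.019) and PSPH in muscle (-0.068) for genotype by time-point between ML and LP turned in sign, all far from the threshold, and ASNS in muscle between ML and LP was called (0.83). That fit called 1 gene, against 2, for genotype by time-point in muscle from LP to EL. By DESeq2 ASNS was called in liver from LP to EL (0.87) and in muscle between ML and LP (0.64). ASNS in liver between ML and LP was not called with no gene filter (-0.75), without batch B (-0.80) or with a batch term (-0.71), nor was PSPH in muscle without batch B (0.70) or with a batch term (0.76). For genotype in muscle at ML, ASNS (0.15) and PSPH (0.11) turned in sign without batch B.

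Of the genotype values, the exact test with one common dispersion called ASNS (1.45) and PSPH (1.10) in liver at EL, PSPH in liver at ML (-0.84) and GLUL in muscle at ML (-0.66). Over the genome, liver had 306 calls at LP by that test, 301 at EL and 279 at ML, against 214, 438 and 214 for muscle. Calls by DESeq2 numbered 6 for liver at EL, 77 for liver at ML, and 27 (LP), 119 (EL) and 10 (ML) for muscle. In muscle at EL 0 were called without batch B. Genes called from LP to EL in liver came to 193 with no gene filter, 0 without batch B, 272 with a batch term and 889 by DESeq2. The cause was not tested.

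When 1 cow was left out, genes called in liver ranged from 8 to 1468 from LP to EL and from 1344 to 2356 between ML and LP. ASNS in liver ranged from 0.71 to 1.01 from LP to EL and from -0.84 to -0.65 between ML and LP. ASNS in muscle ranged from -0.60 to -0.34 from LP to EL and from 0.53 to 0.79 between ML and LP, and PSPH there from 0.74 to 1.03. GLUL in liver ranged from -0.12 to 0.012 from LP to EL and from -0.099 to 0.035 from EL to ML. Genotype differences of mean log2(CPM + 1) ranged from -0.33 to 0.12 for ASNS and -0.35 to 0.14 for PSPH in liver at LP, from -0.068 to 0.20 for GLUL in liver at EL, from -0.053 to 0.088 for ASNS and -0.23 to 0.038 for PSPH in muscle at LP, from -0.23 to 0.0046 for ASNS in muscle at EL and from -0.13 to 0.15 for PSPH in muscle at ML. With log2(CPM + 0.1) none of the 27 correlations changed sign. PSPH in muscle at EL, at 6 to 52 counts per library, is the value that depth limits most.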
